A study of Mus musculus with 20 samples.

Results

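The comparison described here is PML-RARα against wild type (WT) over both sorted stages of the mouse promyelocyte. All 20 libraries of the series entered it, 10 labelled PML-RARα and 10 labelled wild type, chosen by genotype in the sample titles. Each genotype had 5 libraries of CD34+ early promyelocytes and 5 of CD34- late promyelocytes, and every mouse was of the FVB/n background. The fit held the CD34 fraction as a second factor, so that 1 additive genotype effect was estimated for each region. The labels call the PML-RARα mice transgenic and name neither the promoter that drives the transgene nor the age of the mice. They also do not say whether the libraries came from separate mice or from pools, so the p-values measure the spread between these libraries, which may in part be technical. No RNA or protein was measured in these libraries, and the labelled cell types were therefore not checked against marker genes.

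Promyelocytes are the granulocyte precursors in which the primary granules are made, and they lose CD34 from their surface as they mature. PML-RARα is the fusion of the PML protein with the retinoic acid receptor alpha that arises in acute promyelocytic leukemia, where it binds retinoic acid response elements and recruits repressors. DNA methylation at CpG sites is copied at each division by DNMT1, is low at most CpG-rich promoters, and is often lost at enhancers when these are taken into use. The series asks how far methylation in promyelocytes of PML-RARα mice departs from that of control mice. Methylation was read by enhanced reduced representation bisulfite sequencing (ERRBS), which sequences CpG-rich restriction fragments after bisulfite has turned unmethylated cytosines into bases read as T.

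Between 1718859 and 2213704 CpG cytosines were listed per library, and coverage summed over them ran from 83631324 to 362881291 reads. The 1730534 autosomal cytosines with at least 10 reads in at least 4 of the 5 libraries of every group were summed over fixed 1 kb windows of the mm9 genome. Windows with at least 3 such cytosines were kept, 127276 in all, with a median of 5 cytosines. The level of a window is its methylated reads as a percent of all its reads, and a difference is the mean of the 2 within-fraction differences, PML-RARα minus WT, in percentage points. A level averages over all cells of a sort, so that a different mix of cells and a different level per cell cannot be told apart. In windows of intermediate methylation 5 libraries scattered more around their group than the other 15, by a median of 6.55 to 9.10 points against 3.43 to 6.07. Among them 4 were PML-RARα libraries (replicates 5 and 11 of CD34+ cells, replicates 6 and 12 of CD34- cells) and 1 was WT (replicate 1 of CD34+ cells). Replicate numbers are the leading numbers of the sample titles.

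Genes were placed beside the windows by finding RefSeq promoter sequences in the mm9 positions through their CpG spacing. This placed 9706 promoters of 8569 genes. The table of promoters belongs to GRCm38.p6, and its sequences, 300 bases long with 250 before the start of the gene, are shown for the 4 genes whose start lay within 2.5 kb of a window described below. They are printed in the direction of the gene, with every CpG in capitals, because these are the sites that methylation can occupy. The mm9 positions come from the match. H2-D1, on the plus strand, at chr17:35399789-35400088; Dcakd, on the minus strand, at chr11:102878412-102878711; Cep19, on the plus strand, at chr16:32099625-32099924; and Kcnc1, on the plus strand, at chr7:53651588-53651887.
H2-D1: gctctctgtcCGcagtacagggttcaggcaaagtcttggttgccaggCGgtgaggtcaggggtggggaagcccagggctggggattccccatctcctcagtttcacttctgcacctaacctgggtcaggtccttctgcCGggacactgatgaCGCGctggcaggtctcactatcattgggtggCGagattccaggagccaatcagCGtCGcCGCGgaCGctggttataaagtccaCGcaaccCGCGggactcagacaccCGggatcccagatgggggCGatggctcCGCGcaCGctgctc
Dcakd: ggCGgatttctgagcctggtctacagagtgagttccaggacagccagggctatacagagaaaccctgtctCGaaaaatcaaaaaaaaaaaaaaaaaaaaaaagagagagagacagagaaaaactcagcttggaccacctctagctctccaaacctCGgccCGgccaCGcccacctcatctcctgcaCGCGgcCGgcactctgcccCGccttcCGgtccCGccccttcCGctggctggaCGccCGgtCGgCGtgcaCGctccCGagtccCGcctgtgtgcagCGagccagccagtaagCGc
Cep19: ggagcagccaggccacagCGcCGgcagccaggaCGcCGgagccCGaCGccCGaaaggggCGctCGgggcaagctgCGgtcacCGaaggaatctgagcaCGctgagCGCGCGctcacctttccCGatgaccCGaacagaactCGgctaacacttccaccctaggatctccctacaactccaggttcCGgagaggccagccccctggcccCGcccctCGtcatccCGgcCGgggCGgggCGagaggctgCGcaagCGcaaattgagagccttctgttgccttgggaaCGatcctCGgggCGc
Kcnc1: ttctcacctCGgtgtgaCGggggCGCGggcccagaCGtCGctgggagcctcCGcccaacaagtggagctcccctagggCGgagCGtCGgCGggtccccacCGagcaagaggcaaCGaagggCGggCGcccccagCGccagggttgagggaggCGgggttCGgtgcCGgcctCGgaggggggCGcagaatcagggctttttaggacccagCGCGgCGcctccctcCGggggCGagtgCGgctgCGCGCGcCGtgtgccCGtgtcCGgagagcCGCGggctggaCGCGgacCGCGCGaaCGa

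The H2-D1 promoter holds 19 CpGs and its 18 kept cytosines stood at 0.217% ± 0.173 in WT CD34+, 0.147% ± 0.191 in PML-RARα CD34+, 0.125% ± 0.0920 in WT CD34- and 0.0980% ± 0.0582 in PML-RARα CD34- libraries (mean ± SD, n = 5 each). The other 3 promoters, with 21, 30 and 41 CpGs, lay between 0.0667% and 0.598% in every group. The files hold 17 of the 21 Dcakd, 25 of the 30 Cep19 and 29 of the 41 Kcnc1 CpGs, and the other capitals above have no value. The levels use only the cytosines kept by the coverage limit. Not every CpG of H2-D1 has a value either, and some held CpGs of the other 3 may have none. The measured CpGs were almost free of methylation in both genotypes and both fractions, and the differences given below lie beside these promoters and not on them.

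Very few windows were called between PML-RARα and WT promyelocytes, and a window that was not called may still differ. Over all 127276 windows, 2 passed both limits, an adjusted p below 0.05 and 10 points between the genotypes (quasi-binomial test with Benjamini-Hochberg adjustment), which is 0.00157% of those tested. Both were lower in PML-RARα cells and none was higher. One lies on chromosome 13 upstream of Jarid2, which encodes a subunit that guides the Polycomb repressive complex PRC2, and the other just inside the start of H2-D1, which encodes a classical MHC class I heavy chain. Limma, fitted to the same windows, and edgeR, fitted to the 114462 windows with reads in all libraries, called 0, with 5921 and 3733 windows at an unadjusted p below 0.05. In simulated data of this depth the quasi-binomial test gave more small p-values than its nominal rate. The 6.43% of windows that had an unadjusted p below 0.05 here did not exceed the share among unchanged simulated windows. The simulated libraries were independent of each other, with overdispersion taken from these data. The comparison therefore cannot tell how many of these windows differ.

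The chromosome 13 window, chr13:44629001-44630000, was lower in PML-RARα cells of both fractions. In WT CD34+ cells replicates 1, 7, 9, 15 and 17 stood at 87.1%, 72.3%, 75.9%, 68.5% and 64.4%. In PML-RARα CD34+ cells replicates 3, 5, 11, 13 and 19 stood at 24.0%, 37.1%, 30.1%, 23.0% and 21.8%. Every PML-RARα library lay below every WT library of the fraction, with a gap between 37.1% and 64.4%. In CD34- cells the WT replicates 2, 8, 10, 16 and 18 stood at 46.1%, 30.8%, 38.1%, 36.7% and 36.7%. The PML-RARα replicates 4, 6, 12, 14 and 20 stood at 7.08%, 0.130%, 0.570%, 15.4% and 3.99%. Here too the genotypes did not overlap, and 2 PML-RARα libraries were nearly free of methylation. The group means were 73.6% ± 8.66 and 27.2% ± 6.41 in CD34+ and 37.7% ± 5.47 and 5.44% ± 6.26 in CD34- cells (SD, n = 5 each), an additive difference of -39.3 points with a standard error of 3.04 (quasi-binomial adjusted p = 1.13e-05). The coverage of the window, summed over its cytosines, was 257 to 1466 reads per library. Limma and edgeR gave this window adjusted p-values of 0.316 and 0.317, and limma on the mean of libraries with consecutive numbers, taken as 1 animal, gave 0.592. The other 31 of 34 settings tried called it. All 31 used the quasi-binomial test, and 20 of them only left out 1 library, so they are not separate support. With flowcell as a factor its quasi-binomial adjusted p was 0.000613.

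**Figure D1:**
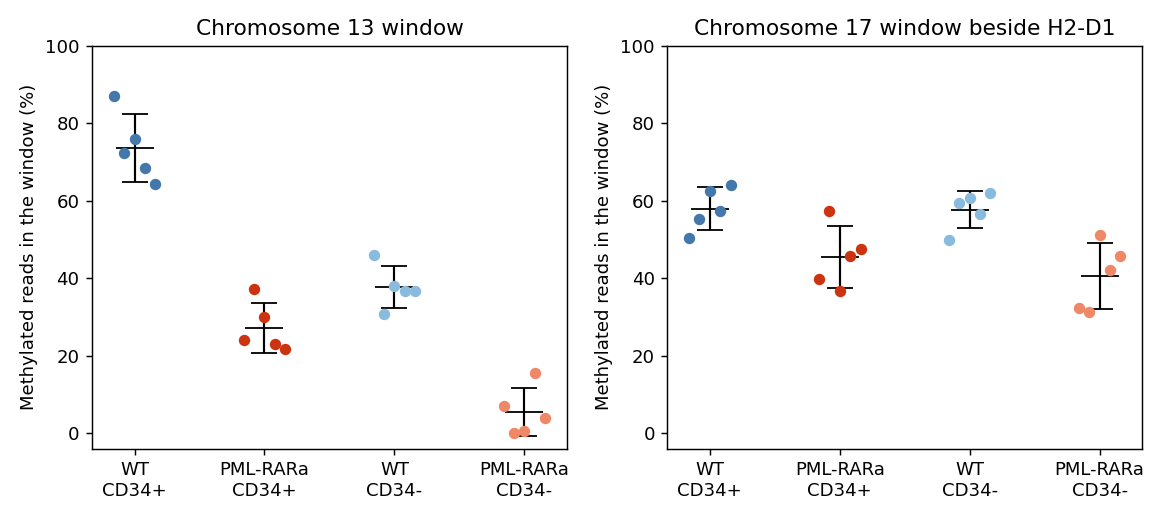
Percent of methylated reads per library (points) at the 2 called windows, by genotype and CD34 fraction, with the mean and SD of 5 libraries in black. At the chromosome 13 window the WT libraries lie between 64.4% and 87.1% in CD34+ and between 30.8% and 46.1% in CD34- cells, above all PML-RARα libraries of the same fraction, while at the window beside H2-D1 the genotypes overlap.

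All 5 kept cytosines of the chromosome 13 window were lower in PML-RARα cells in both fractions. They span 160 bp, from 44629825 to 44629984, and their differences ran from -54.3 to -22.4 points. The last 2, at 44629983 and 44629984, are the forward and reverse cytosine of 1 CpG and were read from opposite strands. They stood at 81.2% and 92.8% in WT CD34+, at 45.2% and 42.0% in PML-RARα CD34+, at 65.5% and 63.8% in WT CD34- and at 16.1% and 5.96% in PML-RARα CD34- cells. Both strands thus gave the same order of the 4 groups. The cytosine at 44629859 behaved differently in level, since it was already at 0.614% in WT CD34- cells and 0% in PML-RARα CD34- cells, and its difference lay in CD34+ cells, 50.7% in WT against 6.43% in PML-RARα. When each cytosine was tested alone, 7 were called over the genome, 6 of them lower, and 3 of the 7 belong to this window.

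**Figure D2:**
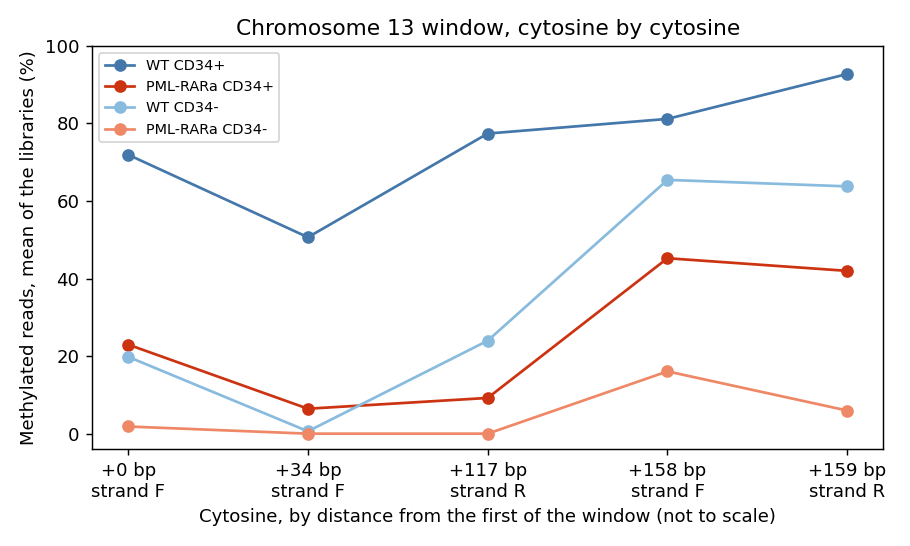
Mean percent of methylated reads of the 4 groups at the 5 cytosines of the chromosome 13 window, in order of position, with the distance from the first cytosine and the strand on the axis. The PML-RARα line lies below the WT line of the same fraction at all 5 cytosines, and at the second cytosine both CD34- groups are at or near 0.

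Around the chromosome 13 window the differences were smaller. The next window, chr13:44630001-44631000, differed by -6.59 points (unadjusted p = 0.00104, quasi-binomial adjusted p = 0.498), but in windows of 500 bp its first part, chr13:44630001-44630500, was called, with -17.6 points (adjusted p = 0.00600). The 4 measured windows within 10 kb were all lower in PML-RARα cells, with a median of -3.38 points. Within 200 kb, 46 other windows were measured, 32 lower and 14 higher, and 8 of them had an unadjusted p below 0.05, all lower. Over all windows 4.07% had such a p and were lower in PML-RARα cells, and 2.36% had one and were higher. The smallest p within 200 kb belonged to chr13:44504001-44505000, 125 kb away, which differed by -12.1 points (quasi-binomial adjusted p = 0.156). The nearest matched start sites are those of Jarid2, 196 kb to the right, and the predicted gene Gm33195, 669 kb to the left, and RefSeq lists 0 protein-coding genes between these 2 genes. The window that holds the start of Jarid2 stood at 0.114% in WT CD34+ and 0.0815% in PML-RARα CD34+ cells.

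The chromosome 17 window, chr17:35401001-35402000, begins 0.962 kb downstream of the start of H2-D1. In CD34+ cells the WT libraries stood at 50.4%, 55.3%, 62.6%, 57.4% and 64.1%, and the PML-RARα libraries at 39.8%, 57.4%, 36.7%, 45.8% and 47.5%. In CD34- cells the WT libraries stood at 50%, 59.4%, 60.8%, 56.5% and 61.9%, and the PML-RARα libraries at 32.3%, 31.4%, 51.2%, 42.3% and 45.8%. The genotypes overlapped in both fractions through 1 PML-RARα library in each, replicate 5 in CD34+ and replicate 12 in CD34- cells, both among the 5 libraries of high scatter. The additive difference was -14.8 points with a standard error of 3.09 (quasi-binomial adjusted p = 0.0371), and the window was called in 16 of 34 other settings, with adjusted p-values from 0.0237 to 1. All 16 used the quasi-binomial test, and 10 of them only left out 1 library. The adjusted p was 0.973 by limma, 1 by edgeR and 0.175 in the quasi-binomial test with flowcell as a factor. Without the 5 libraries of high scatter the difference was -16.6 points (adjusted p = 0.0474). All 5 cytosines, within 81 bp, were lower in both fractions. The window that holds the H2-D1 start, directly to its left, differed by -0.0857 points at a level under 1%. H2-D1 has close paralogs among the MHC class I genes, and how reads that fit several of them were assigned is not given in the sources used here, so that its level may hold reads from another class I gene.

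Below the 2 called windows, the 8 with the next smallest p among those lower by at least 10 points had adjusted p-values of 0.0651 to 0.0860 and were not called. At chr2:57986001-57987000, between Gpd2 and Acvr1c, the CD34+ libraries stood at 50.7% to 60.5% (median 53.6%) in WT and 14.0% to 38.2% (median 27.1%) in PML-RARα, without overlap. Its CD34- libraries stood at 27.6% to 55.0% (median 36.6%) in WT and 16.2% to 29.9% (median 22.0%) in PML-RARα and overlapped. All 12 cytosines of this window were lower in PML-RARα cells in both fractions, and the additive difference was -23.2 points with a standard error of 3.52 (quasi-binomial adjusted p = 0.0651). RefSeq places Galnt5, Ermn and Cytip between the 2 flanking genes, whose starts are 895 kb and 223 kb from the window. Cytip encodes a cytohesin-binding protein of blood cells.

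At chr4:94742001-94743000, 23.1 kb upstream of Jun, the AP-1 transcription factor gene, the WT libraries stood at 34.3% to 50.3% in CD34+ and 15.0% to 23.7% in CD34- cells. The PML-RARα libraries stood at 0% to 29.0% in CD34+ and 6.51% to 11.3% in CD34- cells. The genotypes did not overlap in either fraction, and the difference was -17.4 points with a standard error of 3.21 (quasi-binomial adjusted p = 0.0651). The lowest PML-RARα CD34+ values were 0% in replicate 11 (66 reads) and 13.0% in replicate 5 (146 reads), both libraries of high scatter. Without the 5 libraries of high scatter the difference was -12.2 points. The window that holds the start of Jun stood between 0.106% and 0.252% in the 4 groups.

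At chr2:72135001-72136000, 11.2 kb downstream of the start of Map3k20, a mixed-lineage stress kinase, the means in CD34+ cells were 65.7% ± 3.15 in WT (n = 4, since replicate 1 had no reads there) and 37.5% ± 15.8 in PML-RARα (n = 5). In CD34- cells they were 33.0% ± 6.68 and 16.7% ± 8.40 (SD, n = 5 each). The difference of -22.3 points rests on 3 cytosines within 9 bp, all read from 1 strand.

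At chr11:102877001-102878000, which ends 0.461 kb downstream of the start of Dcakd, CD34+ means were 72.7% ± 4.58 in WT and 58.6% ± 7.83 in PML-RARα, and CD34- means were 54.2% ± 7.36 and 37.7% ± 6.77 (SD, n = 5 each). Dcakd encodes a protein with a dephospho-CoA kinase domain. At chr16:32102001-32103000, 2.13 kb downstream of the start of Cep19, which encodes a centrosomal and ciliary protein, CD34+ means were 52.8% ± 6.68 and 30.8% ± 6.52. The CD34- means there were already low, 8.61% ± 5.45 and 2.83% ± 2.33, so that the differences in the fractions were -22.0 and -5.78 points.

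The other 3 lower windows differed by -14.7, -13.8 and -13.4 points. They lie at chr17:87175001-87176000, between CJ186046Rik and Rhoq in an interval where RefSeq also lists Epas1 and Prkce, at chr18:75608001-75609000, where no promoter was matched on the chromosome, and at chr19:10865001-10866000, between Vwce and Tmem109 in an interval that also holds Cd5 and Cd6. The flanking starts are 1087 kb and 186 kb away on chromosome 17 and 156 kb and 90.2 kb away on chromosome 19. RefSeq lists 6 protein-coding genes in each of these intervals, and their distance from the windows was not measured. Cd5 and Cd6 encode scavenger receptors of lymphocytes, and Epas1 a hypoxia-inducible factor. On chromosome 17 the WT libraries stood at 73.1% to 78.8% in CD34+ and 61.8% to 75.7% in CD34- cells, and the PML-RARα libraries at 52.6% to 69.0% and 46.4% to 60.2%, without overlap in either. On chromosome 18 the means were 84.1% ± 5.14 in WT and 71.6% ± 5.19 in PML-RARα CD34+ cells, and 71.4% ± 5.25 and 56.2% ± 7.27 in CD34- cells (SD, n = 5 each). On chromosome 19 they were 84.5% ± 2.11 and 73.1% ± 3.37, and 74.8% ± 6.76 and 59.3% ± 6.72. WT CD34- cells thus stood within 2 points of PML-RARα CD34+ cells at both of these windows. Of the 10 lower windows, 7 showed no overlap of the genotypes in CD34+ cells, 5 showed none in CD34- cells, and 3 showed none in either. These 3 are the chromosome 13 window, the one between CJ186046Rik and Rhoq and the one near Jun. Over all windows the shares that were lower without overlap were 0.554%, 0.444% and 0.00786%. The windows were picked by the p of the same libraries, so nothing is read from these counts. In windows of 500 bp 12 were called, all lower in PML-RARα cells, and 9 of them lie in the 10 windows named here.

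**Figure D3:**
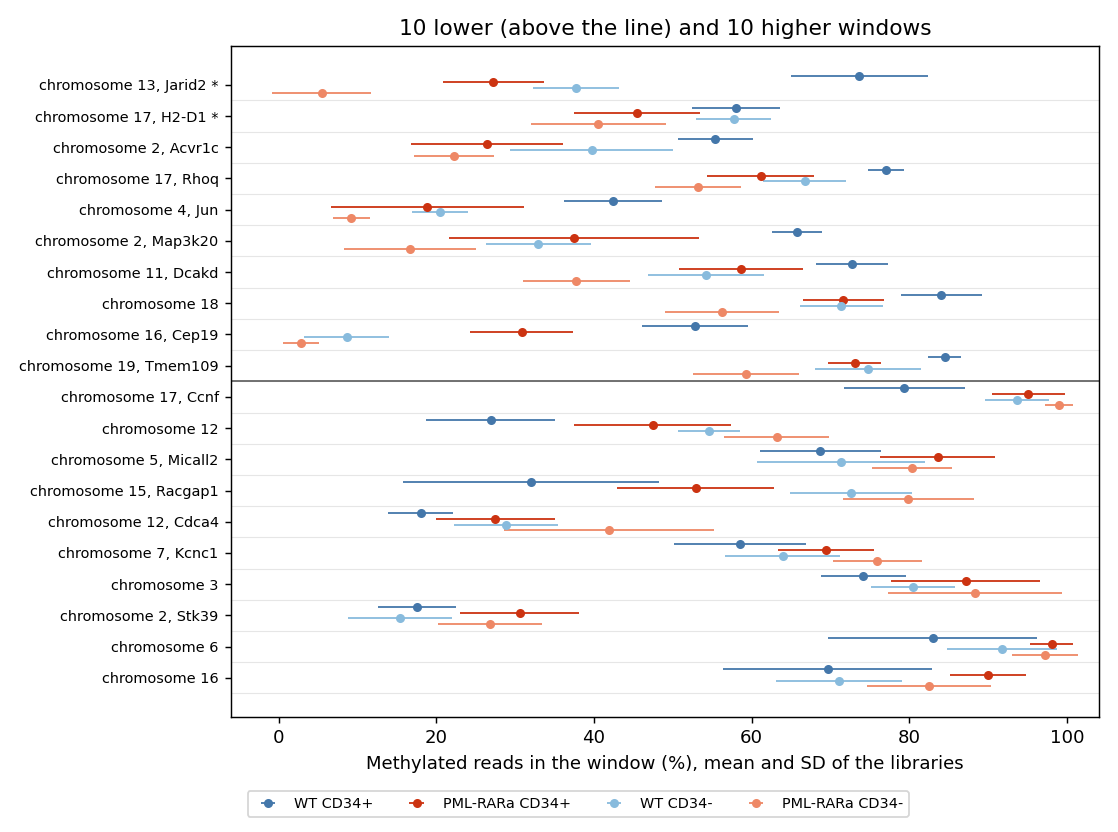
Mean and SD of the percent of methylated reads of the 4 groups at the 10 lower windows (above the line) and the 10 higher windows (below it), each named by its chromosome and the nearest matched gene within 250 kb, with a star at the 2 called ones. Above the line each PML-RARα point lies to the left of the WT point of the same fraction, and each CD34- point lies to the left of the CD34+ point of the same genotype.

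In all 10 lower windows, CD34- cells were also lower than CD34+ cells, in WT and in PML-RARα mice alike. The fraction term had an adjusted p below 0.05 in 9 of them (quasi-binomial test), against 0.87% of all windows. Of these, 7 also differed by at least 10 points between the fractions, where 0.607% of all windows were called for the fraction. Across all windows 773 were called for the fraction, 676 lower and 97 higher in CD34- cells. The exception among the 10 was the window beside H2-D1, where WT stood at 58.0% in CD34+ and 57.7% in CD34- cells (quasi-binomial adjusted p of the fraction = 0.699). In 6 of the 10, the mean of PML-RARα CD34+ cells was already below that of WT CD34- cells, as at chromosome 13 with 27.2% against 37.7%. The order was opposite at that window's cytosines 44629825, with 23.0% against 19.8%, and 44629859, with 6.43% against 0.614%. The other cytosines of the window kept it. Mean methylation was lower in CD34- cells of both genotypes too, as given below. Shares over all windows were not counted for the 10 of 10 and the 6 of 10, so nothing is read from these counts. Both terms come from the same 20 libraries and were fitted together, with the same overdispersion and coverage. A pick by a small genotype p can therefore favour a small p of the fraction. All windows also include 24372 below 5% and 19411 at 95% and above, with little room to change. Nothing is read from the 9 and the 7 either. Whether windows with a genotype difference change with the fraction more often than other windows of their level was not tested.

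No window that was higher in PML-RARα cells was called. The 10 with the smallest p among those higher by at least 10 points had adjusted p-values from 0.171 to 0.553 (quasi-binomial test) and differed by 10.3 to 15.9 points. At chr17:24423001-24424000, between Ccnf, the cyclin F gene, and Abca17, the CD34+ libraries stood at 67.3% to 86.7% (median 80.8%) in WT and 89.7% to 100% (median 93.8%) in PML-RARα, without overlap. Its CD34- means were 93.7% ± 4.08 and 99.0% ± 1.78 (SD, n = 5 each). The window chr12:36396001-36397000 lies between the starts of Snx13, 664 kb away, and Tspan13, 372 kb away. RefSeq lists Ahr, the aryl hydrocarbon receptor gene, Agr3 and Agr2 between them. The distance between these 2 starts differs between mm9 and GRCm38.p6, so that the genes between them in mm9 are less sure. CD34+ means of this window were 26.9% ± 8.24 in WT and 47.4% ± 9.92 in PML-RARα. Its CD34- means were 54.6% ± 3.94 and 63.2% ± 6.61. At chr15:99473001-99474000, 8.09 kb downstream of the start of Racgap1, a gene of cytokinesis, the same values were 32.0% ± 16.2 and 52.9% ± 9.98 in CD34+ and 72.6% ± 7.74 and 79.9% ± 8.32 in CD34- cells.

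At chr7:53649001-53650000, 1.84 kb upstream of the start of the potassium channel gene Kcnc1, CD34+ means were 58.5% ± 8.42 and 69.4% ± 6.13 and CD34- means 63.9% ± 7.31 and 75.9% ± 5.64 (SD, n = 5 each). The largest difference among these 10 windows was 15.9 points, at chr16:36526001-36527000. The nearest matched starts on its sides are 454 kb and 301 kb away, and RefSeq lists 17 protein-coding genes between them. Among these are the stefin genes Stfa1, Stfa2 and Stfa3, protease inhibitors of myeloid cells, Casr and Cd86. Their distance from the window was not measured. The CD34+ libraries of this window stood at 49.5% to 81.6% in WT and 84.3% to 95.9% in PML-RARα, without overlap. Its CD34- means were 71.1% ± 7.96 and 82.5% ± 7.89. The remaining 5 were chr5:140123001-140124000, between Uncx and Micall2 (11.9 points), chr12:114105001-114106000, between Cdca4 and Jag2 (11.2 points), chr2:68077001-68078000, between B3galt1 and Stk39 (12.2 points), chr3:14876001-14877000 (10.4 points) and chr6:81665001-81666000 (10.3 points). The last 2 have no matched start within 250 kb. Without the 5 libraries of high scatter the difference was 4.11 points at the chromosome 3 window, 6.05 at chromosome 6, 6.67 at the chromosome 7 window beside Kcnc1 and 7.95 at the chromosome 2 window. Of the 10 higher windows 4 showed no overlap of the genotypes in CD34+ cells and 0 in CD34- cells, so that 0 showed none in either. Over all windows the shares that were higher without overlap were 0.23%, 0.486% and 0.00236%. The fraction had an adjusted p below 0.05 in 3 of them (quasi-binomial test), and in 0.87% of all windows. In 8 of the 10 the difference was larger in CD34+ than in CD34- cells, and in 6 of the 10 lower windows. The share over all windows was not counted, and the windows were picked by p from the same libraries. Nothing is read from these counts. No window had an adjusted p below 0.05 for the interaction of genotype and fraction (quasi-binomial test, smallest adjusted p 0.600), with 6581 windows at an unadjusted p below 0.05.

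Large differences were mostly lower levels in PML-RARα cells. Windows lower by 10 points or more numbered 766 and windows higher by as much 335, and at 20 points or more there were 17 and 4. Among windows with such a difference of at least 10 points, 445 lower and 137 higher ones had an unadjusted p below 0.05, and 81 lower and 4 higher ones had a p below 0.001. Over all windows the balance was nearer to even: 54.1% were lower, and the median difference was -0.0402 points. In windows of 20% to 80% methylation, where there is room to move either way, 54.6% of 22746 were lower and the median was -0.371 points. At an unadjusted p below 0.05 without regard to size, 5185 windows were lower and 3005 higher by the quasi-binomial test. Limma split its 5921 windows more evenly, into 3067 lower and 2854 higher, while among its 30 windows with a p below 0.001 and at least 10 points 27 were lower. EdgeR found 19 such windows, of which 18 were lower. Single cytosines tested alone were less one-sided, with 542 lower and 284 higher at the same limits in the quasi-binomial test. With consecutive library numbers taken as 1 animal, limma turned the balance at a p below 0.05, with 2634 windows lower and 2768 higher.

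**Figure D4:**
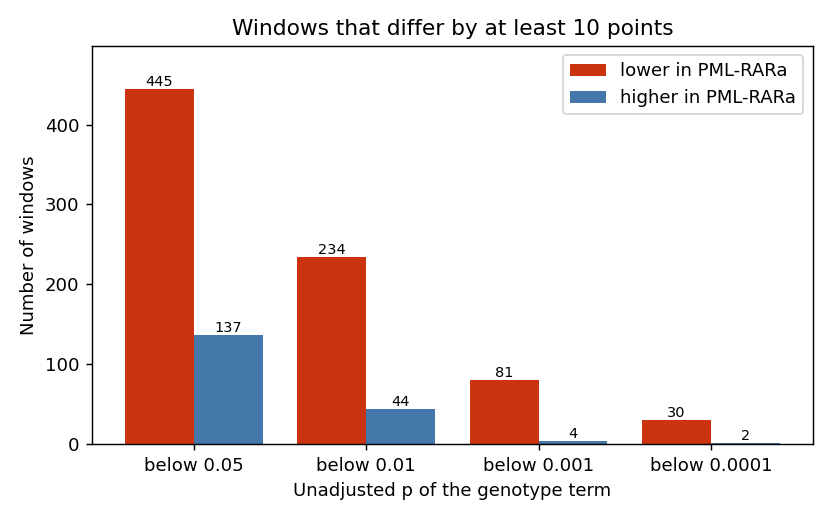
Number of windows that differed by at least 10 points, lower (red) or higher (blue) in PML-RARα cells, below 4 limits of the unadjusted p of the quasi-binomial genotype term. The counts fall from 445 lower and 137 higher windows at 0.05 to 30 and 2 at 0.0001.

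The fractions share no library, so windows picked in one can be read in the other. In CD34+ cells alone 61 windows were lower in PML-RARα by at least 10 points at an unadjusted p below 0.001, with a median of -16.4 points. In CD34- cells 45 of the 61 were also lower, with a median of -4.28 points. In the reverse direction 39 windows were picked in CD34- cells, with a median of -15.4 points, and 27 of them were lower in CD34+ cells, with a median of -2.79 points. Of the windows picked as higher, 5 of 8 picked in CD34+ cells and 12 of 27 picked in CD34- cells were also higher in the other fraction. Over all windows 54.3% were lower in CD34+ and 51.0% in CD34- cells. The differences in the fractions were almost uncorrelated over all windows (Pearson r = 0.0319, n = 127276 windows, which share their libraries), and r was 0.0507 in windows of 20% to 80% methylation. Whether libraries of the fractions came from the same mice is not given by the labels.

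Average methylation differed by under 1 point between the genotypes. Over the 114462 windows with reads in all 20 libraries the mean was 63.5% ± 0.286 in WT CD34+, 63.0% ± 0.361 in PML-RARα CD34+, 62.5% ± 0.331 in WT CD34- and 62.4% ± 0.254 in PML-RARα CD34- libraries (SD, n = 5 each). The additive difference was -0.270 points, -0.453 in CD34+ and -0.0871 in CD34- cells (two-sided exact permutation of genotype within fraction, p = 0.0749). The genotypes were spread unevenly over the 4 flowcells named by the labels, lettered A to D here. Within them the difference was 0.0584 points on A in CD34- cells (3 PML-RARα and 2 WT libraries), -0.190 on B in CD34+ cells (3 and 1), -0.0560 on B in CD34- cells (2 and 1) and -0.669 on D in CD34+ cells (1 and 2). With so few libraries a flowcell gives a value and no test, and the sign on A was opposite to the others.

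**Figure D5:**
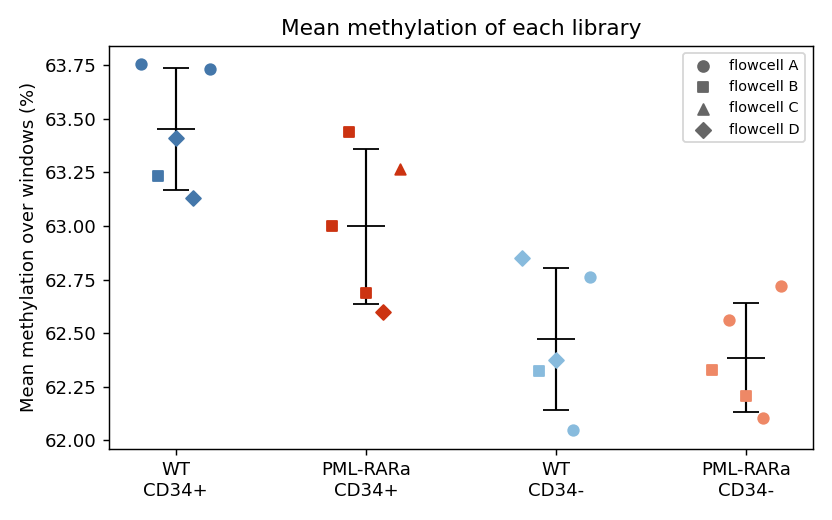
Mean percent methylation over 114462 windows for each library (points, shaped by flowcell), with the mean and SD of 5 libraries per group in black. The vertical axis does not start at 0, and the genotypes overlap in both fractions.

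Each level class below 95% had a slightly lower mean in PML-RARα cells, and none of these means passed a test. The differences were -0.0330 points in windows below 5%, -0.368 at 5% to 20%, -0.676 at 20% to 50%, -0.569 at 50% to 80%, -0.361 at 80% to 95% and 0.104 at 95% and above, which turned to -0.105 without the 5 libraries of high scatter. By number of cytosines they ran from -0.348 points in windows of 3 to 5 cytosines to -0.0353 in those of 21 and above. Of these 10 classes none passed after adjustment (exact permutation within fraction, two-sided, smallest raw p = 0.0277 for the class of 80% to 95%, adjusted p = 0.156).

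Few windows at gene starts differed by 10 points. Of the 7873 windows that hold a matched start site, 1 differed by at least 10 points, against 1100 of the other 119403. The start windows had a median level of 0.146% and the others one of 88.9%, so that most start windows could not be lower by 10 points. At an unadjusted p below 0.05 (quasi-binomial test) there were 323 lower and 107 higher start windows, 5.46% of them, against 6.50% of the other windows. A list of 35 genes, mainly of the retinoid receptors, granulocyte factors, primary granules, methylation enzymes and the cell cycle, and with Jun, Jarid2 and H2-D1 from above, had 20 genes with a matched start, in 24 windows. None of the primary granule genes Mpo, Elane, Prtn3 and Ctsg was among the 20, so that no start window of this group was tested. Of these windows 0 were called, against 0.00157% of all windows, and 0 had an unadjusted p below 0.05 by the quasi-binomial test, against 6.43% of all windows. The 24 windows are too few to read a difference from that share. Their differences ran from -0.242 to 0.569 points with a median of -0.0141. Rara, the receptor gene that is fused in the leukemia, stood at 0.235% in WT CD34+, 0.0539% in PML-RARα CD34+, 0.171% in WT CD34- and 0.261% in PML-RARα CD34- cells. Rarb, a retinoic acid target gene often studied for silencing by PML-RARα, had the largest difference of the list, with 1.37% ± 0.815 in WT CD34+, 1.53% ± 1.06 in PML-RARα CD34+, 1.95% ± 0.441 in WT CD34- and 2.93% ± 0.423 in PML-RARα CD34- libraries. Cebpa, the master factor of granulocyte fate, Runx1, Kit, Dnmt1, Dnmt3b and Tet2 were below 0.5% in all groups. An upstream start of Gata2 was the one start window above 5%, at 4.78% ± 2.11, 5.57% ± 7.02, 5.29% ± 0.953 and 5.01% ± 1.02 in the same order of groups.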

How the data were processed

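The 20 ERRBS libraries of CpG methylation were grouped by the genotype and CD34 fraction in their titles. CASAVA 1.8.2 and Bismark and the mm9 build are named, per the submitters' processing notes; their settings are not given in the sources used here. The authors deposited, per the file headers, the coverage of each CpG cytosine and strand (a count of reads) and the percent of reads with C and with T. No listed cytosine had under 10 reads. Coverage times percent C was a whole number at 100% of cytosines, up to the rounding of the deposited percent, and was taken as methylated reads.

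Windows were fitted in Python 3.11.15 (numpy 2.4.6, scipy 1.17.1) with a quasi-binomial logistic model of genotype and fraction and an F test of the deviance. The overdispersion was moderated over windows as in limma and kept at 1 or above. P-values were adjusted by Benjamini-Hochberg over all windows, and a call also needed 10 points. The test was tested on simulated reads with known differences, where unchanged windows gave an unadjusted p below 0.05 more often than nominal. Limma on log2 of methylated over unmethylated reads, with 1 added to each, and edgeR on both counts were alternatives, with other filters, windows, terms and left-out libraries. Means and classes were tested by exact permutation of genotype within fraction. No pair of libraries of a group agreed within sampling noise, with a chi-square per window between 6.08 and 39.5. Windows were named as the called ones by size and then those of smallest p with at least 10 points, 10 in each direction. Gene names were first planned only for a table of mm9. The match of RefSeq promoters (GRCm38.p6) by at least 8 CpGs of equal spacing, found at 1 place, was added later, and 99.96% of matches lay on the chromosome RefSeq gives. Standard errors come from the group SDs. The members, lists and tests were chosen with earlier results of these data known. The reads carry no molecular identifiers, so coverage counts reads and not molecules.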

Additional observations from a re-analysis of the deposited data

Results flagged for a closer look

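Single libraries far from the rest of their group of 5 (or 4, where 1 had no reads) were sought by the ratio of the gap beside the highest or lowest value to the whole range. Of 124 groups, at the 20 named windows and for the means, 6 held such a library, and about 1 in 20 would by chance. At chr17:87175001-87176000 WT CD34+ replicate 7 stood at 73.13%, below 77.33% to 78.79% in the others, on the side of the PML-RARα libraries. The other 4 at windows all concern windows that were higher in PML-RARα cells and not called. At chr6:81665001-81666000 WT CD34+ replicate 1 stood at 59.32%, against 86.33% to 90.6% in the others, and PML-RARα CD34- replicate 20 at 89.91%, against 97.71% to 100%. PML-RARα CD34- replicate 20 also stood apart at chr17:24423001-24424000, with 95.89% against 99.11% to 100%. At chr16:36526001-36527000 WT CD34- replicate 2 stood at 57.32%, against 71.51% to 77.27%. In windows of 95% and above, WT CD34+ replicate 1 had a mean of 97.16%, against 95.8% to 96.12%.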

How the results depend on the processing

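The count of 2 called windows was 6 with cytosines in all 20 libraries, 12 in windows of 500 bp and 7 for single cytosines (1 of them higher). It was 0 by limma, by edgeR and by limma with consecutive library numbers taken as 1 animal, with 5921, 3733 and 5402 windows at an unadjusted p below 0.05. It was 1 with 4 group terms, with flowcell as a factor, with the number after # in the titles as a replicate block, after thinning to equal coverage, and with overdispersion not moderated. Leaving out 1 library gave 1 to 6 windows, with 6 without WT CD34- replicate 16 and 4 without WT CD34+ replicate 15 or PML-RARα CD34- replicate 12, and 1 without PML-RARα CD34+ replicate 3, 11 or 13, WT CD34- replicate 8, 10 or 18 or WT CD34+ replicate 7, 9 or 17. Without the 5 libraries of high scatter 3 windows were called. The cause was not tested. The chromosome 13 window kept its call without each single library, with -40.6 to -37.7 points. The H2-D1 window kept it without 10 of the 20, with -16.3 to -13.7 points. Among windows at a p below 0.001 and 10 points, the share that was lower stayed between 80% (without PML-RARα CD34+ replicate 13) and 95.8% without single libraries. For single cytosines the share at these limits was 65.6%. The mean difference was -0.325 to -0.220 points without single libraries (exact permutation p of 0.0295 to 0.140) and had p under 0.05 without PML-RARα CD34- replicate 20 (-0.312), PML-RARα CD34+ replicate 5 (-0.325) or WT CD34- replicate 16 (-0.323). The class of 95% and above changed from 0.104 to -0.105 points without the 5 libraries of high scatter, and the mean difference was 0.0584 points within flowcell A in CD34- cells. The balance of windows at an unadjusted p below 0.05, 5185 lower and 3005 higher, turned to 2634 and 2768 by limma with consecutive numbers as 1 animal. No named window or other class changed sign under the settings run. The replicate block number does not pair samples by the labels. Each pair of consecutive numbers holds 1 CD34+ and 1 CD34- library of the same genotype and the same number after #. Such libraries correlated over 0.1 in 4 of 10 pairs (-0.0635 to 0.260). Their median was 0.0783, against -0.0255 in 40 other pairs. The main fit counted all 20 libraries as separate, and whether these pairs are 1 animal each is not settled by the labels. The denominator of C and T reads was chosen after seeing the data and gave 2 windows. The counts at a p below 0.001 were also added after seeing the data.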

Other observations

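Some windows outside those named were called under single settings, and are given here after their values were seen. In windows of 500 bp these were chr17:35562501-35563000, 161 kb from the H2-D1 window, with -17.8 points, chr4:149377501-149378000 with -13.2 points and chr13:44630001-44630500 as given above (quasi-binomial adjusted p of 0.0390, 0.0390 and 0.00600). Without the 5 libraries of high scatter chr8:122560001-122561000 was called, with -20.8 points (adjusted p = 0.0435). As single cytosines outside the chromosome 13 window, chromosome 10 position 92897227 (-21.2 points), chromosome 12 position 55709756 (-15.3 points) and chromosome 13 position 67729353 (-13.1 points) were lower and chromosome 10 position 79362015 (11.6 points) was higher in PML-RARα cells.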
